A study of Mus musculus with 12 samples.

Results

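Siglecs are cell surface lectins that bind sialic acids, the charged sugars that cap the glycans of most mammalian cells. Most of them carry inhibitory tyrosine motifs that recruit the phosphatases encoded by Ptpn6 and Ptpn11, whereas others pair with the activating adaptor encoded by Tyrobp. On microglia, the resident macrophages of the brain, they are known as brakes on phagocytosis and inflammatory signalling, and Siglech is widely used as a microglial marker. The 6 genes described here, Siglec1, Cd22, Siglecg, Siglech, Siglece and Cd33, were taken by symbol from a table of 24328 genes, and all 6 were among the 12695 genes with enough counts to be tested. They were selected on their CPM in these libraries, chosen by Siglec1 and Cd22 being high and Siglech stable in allogeneic microglia, so the comparisons with allogeneic libraries are given as description, without a test. Tests of the members in syngeneic against control microglia use libraries that also entered this choice, so their p-values are not independent of it.

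RNA was sequenced from microglia sorted by FACS from the brains of wild-type Balb/c mice, with 4 mice in each of 3 groups. Allogeneic recipients were lethally irradiated and given allogeneic bone marrow and T cells, and were killed by perfusion on day 14, which the labels call the peak stage of GvHD (graft-versus-host disease, in which T cells of the donor damage tissues of the recipient). Syngeneic recipients were irradiated in the same way and given syngeneic bone marrow and T cells, at the same doses of 5000000 marrow cells and 300000 T cells, and control mice were untransplanted. The mice's age and the donor strain were not given in the sources used here. Syngeneic recipients carry irradiation and transplantation together, so they differ from control mice in both.

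Library totals were 35559202 to 42641198 counts in allogeneic, 36422729 to 46126118 in syngeneic and 32652208 to 45439607 in control libraries. Values below are in CPM, counts scaled to a common library size with TMM factors, with SD over n = 4 mice, and fold changes are on the log2 scale with their SE. The 14 microglia markers, among them P2ry12 and Sparc, summed to 41145 to 42788 CPM in allogeneic, 56907 to 59797 CPM in syngeneic and 59733 to 69232 CPM in control libraries, so the sorted cells carried the markers of their label in every group. Of 12 listed T cell markers 9 were found in the table, led by Lck, Cd5 and Thy1, and Trac, Trbc1 and Trbc2 were not. These 9 summed to 1.36 to 3.84 CPM in allogeneic, 0.910 to 4.93 CPM in syngeneic and 1.73 to 4.03 CPM in control libraries. Without Lck the other 8 summed to 1.36 to 2.29 CPM in allogeneic, 0.632 to 1.89 CPM in syngeneic and 0.265 to 1.81 CPM in control libraries. Because these are bulk samples, fewer cells of a type and less RNA per cell cannot be told apart. With library totals in place of TMM factors the log2 fold change at the median of all tested genes became -0.22 in allogeneic against syngeneic, -0.20 in syngeneic against control and -0.44 in allogeneic against control libraries, and small changes are read against that shift.

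Siglech dominated the family in every group. Per kilobase of exon, a scale that adjusts for the annotated length of each gene, Siglech stood at 655 ± 10.7 CPM per kb in allogeneic, 682 ± 25.4 in syngeneic and 551 ± 24.9 in control microglia. Of the summed CPM per kb of the 6 genes it made up 84.9 ± 1.03% in allogeneic, 87.0 ± 0.870% in syngeneic and 81.3 ± 1.31% in control libraries. Siglece and Cd33 followed, at 59.2 ± 9.33 and 38.6 ± 2.41 CPM per kb in allogeneic, 55.5 ± 4.46 and 44.1 ± 2.58 in syngeneic, and 78.0 ± 10.3 and 44.1 ± 3.26 in control microglia. On this scale the libraries of these 2 genes did not overlap in any group, with Siglece above Cd33. That order rests on the exon lengths used, 1849 bases for Siglece and 7771 for Cd33. The annotation behind the counts was not given, so these lengths may not match it. In CPM the order was reversed, with Cd33 at 300 against 109 for Siglece in allogeneic libraries. The same held for 343 against 103 CPM in syngeneic and 342 against 144 CPM in control libraries.

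The order of the 3 low genes differed between groups. In allogeneic microglia Siglec1 (11.5 ± 2.58 CPM per kb) lay above Cd22 (6.45 ± 0.477) and Cd22 above Siglecg (1.16 ± 0.570), with no overlap between neighbours. In syngeneic microglia Cd22 (1.15 ± 0.509) and Siglec1 (0.891 ± 0.388) overlapped, and Siglecg (0.439 ± 0.0944) overlapped both. In control microglia Siglecg (2.53 ± 0.696) and Cd22 (2.11 ± 0.561) overlapped, and Siglec1 (0.116 ± 0.0379) was lowest in all 4 libraries. Siglec1 thus made up 1.49 ± 0.303% of the sum over the 6 genes in allogeneic, 0.113 ± 0.0492% in syngeneic and 0.0172 ± 0.00591% in control libraries.

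**Figure D1:**
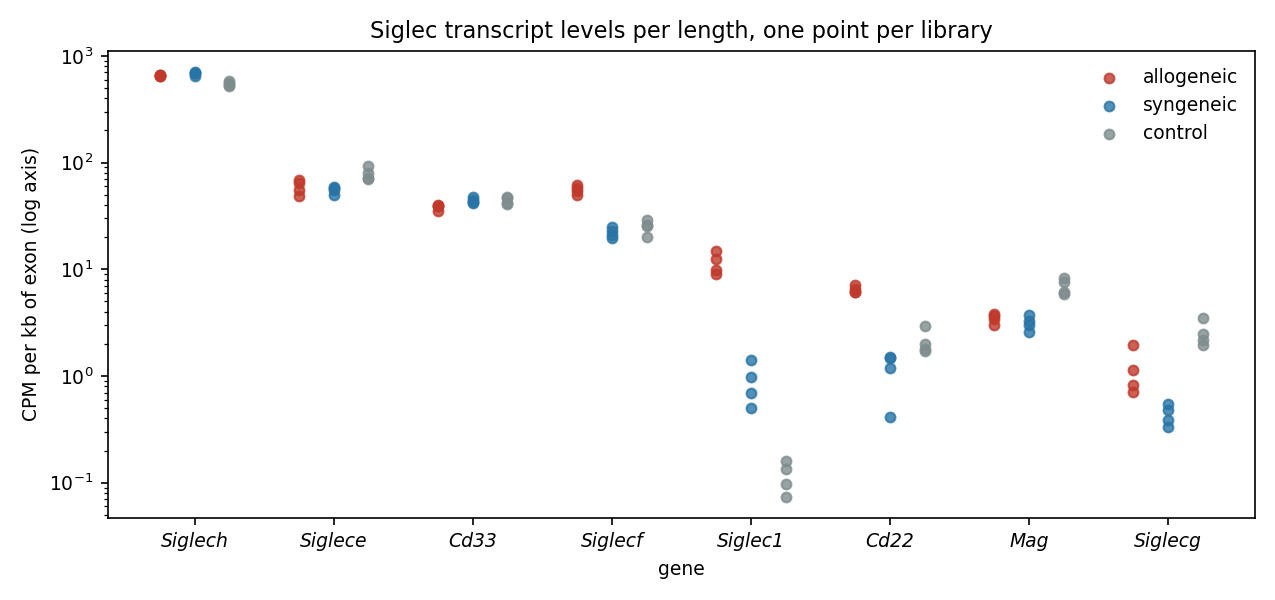
Transcript level per kilobase of exon (CPM per kb, log axis) of the 6 Siglec genes and the 2 other family members tested, Siglecf and Mag, with 1 point per library and the groups in the order allogeneic, syngeneic, control. Siglech lies highest in every library, and Siglec1 spans the widest range, with group means of 11.5, 0.891 and 0.116 CPM per kb.

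Siglec1 encodes sialoadhesin, a large macrophage lectin without inhibitory motifs that binds sialylated cells and is widely known as an interferon-inducible gene. The 4 allogeneic libraries held 64.6, 89.0, 105 and 71.0 CPM, the syngeneic libraries 4.95, 6.92, 9.99 and 3.61 CPM, and the control libraries 0.694, 0.956, 0.529 and 1.14 CPM. The 3 groups did not overlap, and they formed a stepwise order with allogeneic microglia highest and control microglia lowest. The counts behind the control values were 27 to 44 reads per library, so the transcript was detected in each of them at a low level. Allogeneic against syngeneic microglia the log2 fold change was 3.70 ± 0.28, and allogeneic against control it was 6.65 ± 0.34. Siglec1 was also higher in syngeneic (6.37 ± 2.77 CPM) than in control microglia (0.8291 ± 0.271 CPM), with a log2 fold change of 2.95 ± 0.31 (edgeR quasi-likelihood test, adjusted p = 2.4e-07). These libraries also entered the choice of the gene, so that p is not independent of it.

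Markers of monocytes moved with Siglec1. Monocyte markers summed over 14 genes to 310 to 486 CPM in allogeneic, 54.3 to 87.2 CPM in syngeneic and 27.0 to 35.8 CPM in control libraries, led by Ms4a4c, Plac8 and Fn1. Of the monocyte genes that define the classical subset, Ly6c2 averaged 1.60 CPM in allogeneic, 0.122 CPM in syngeneic and 0.0381 CPM in control libraries, and Ccr2 averaged 3.997 CPM in allogeneic, 8.01 CPM in syngeneic and 9.49 CPM in control libraries. Border macrophage markers, from the macrophages of the meninges and vessels, summed to 581 to 824 CPM in allogeneic, 386 to 469 CPM in syngeneic and 453 to 529 CPM in control libraries. Their leading genes were Stab1, Colec12 and Cd36, and without Stab1 the other 13 summed to 434 to 668 CPM in allogeneic, 146 to 183 CPM in syngeneic and 79.0 to 99.0 CPM in control libraries. Cd36 alone averaged 294 CPM in allogeneic, 7.81 CPM in syngeneic and 0.901 CPM in control libraries. Mrc1 averaged 17.8 CPM in allogeneic and 19.2 CPM in syngeneic against 1.72 CPM in control libraries, while Lyve1 had no count in allogeneic or control libraries. The part of these cells in the level of Siglec1 was not tested.

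Cd22 is best known as the inhibitory lectin of B cells, where it dampens the B cell receptor, and in aged mouse microglia it has been described as a brake on phagocytosis. Allogeneic libraries held 35.8, 30.6, 30.9 and 32.7 CPM, syngeneic libraries 2.10, 6.01, 7.58 and 7.48 CPM, and control libraries 10.01, 8.73, 14.8 and 8.999 CPM. The 4 allogeneic values lay close together and above every other library, and all syngeneic values lay below all control values. Unlike Siglec1, Cd22 was therefore lowest in syngeneic and not in control microglia. Its log2 fold change was 2.49 ± 0.31 in allogeneic against syngeneic and 1.61 ± 0.30 in allogeneic against control microglia. Cd22 fell to 5.79 ± 2.57 CPM in syngeneic microglia, against 10.6 ± 2.83 CPM in control microglia (log2 fold change -0.88 ± 0.30, edgeR adjusted p = 0.0192). That call was lost without control replicate 3, the control library with the highest value (log2 fold change -0.68, edgeR adjusted p = 0.0798), and when only these 2 groups were fitted (edgeR adjusted p = 0.0508).

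B cell markers were divided in the same libraries. Pax5, Blk and Fcmr had no count in any of the 12 libraries, where a group total of 0 allows up to 0.0217 CPM in allogeneic and 0.0179 CPM in syngeneic or control libraries, for counting error only. Ms4a1 averaged 0.0200 CPM in allogeneic, 0 CPM in syngeneic and 0.00620 CPM in control libraries, and Cd79a averaged 0.110 CPM in allogeneic, 0.0390 CPM in syngeneic and 0.145 CPM in control libraries. The 16 listed genes found in the table summed to 284 to 329 CPM in allogeneic, 358 to 380 CPM in syngeneic and 452 to 508 CPM in control libraries. The 3 most abundant were Blnk, Bank1 and Cd79b, and without Blnk the other 15 summed to 93.7 to 124 CPM in allogeneic, 132 to 154 CPM in syngeneic and 104.0 to 124 CPM in control libraries. Cd72, an inhibitory lectin-like receptor of B cells on the same list, moved with Cd22 in allogeneic libraries. It held 29.8, 42.0, 54.2 and 37.3 CPM in allogeneic, 8.78, 10.1, 12.5 and 11.5 CPM in syngeneic, and 3.64, 10.5, 6.35 and 6.47 CPM in control libraries. All allogeneic values of Cd72 lay above all others, and the syngeneic and control values overlapped. The part of B cells in the level of Cd22 was not tested.

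The promoter of Cd22 is shown because Cd22 had the largest log2 fold change in allogeneic against syngeneic microglia of the 5 members with an entry in the RefSeq promoter table (build GRCm38.p6, 250 bases before to 50 after the annotated start). The window is chr7:30878979-30879278 on the minus strand, and the capital marks the annotated start.
Cd22: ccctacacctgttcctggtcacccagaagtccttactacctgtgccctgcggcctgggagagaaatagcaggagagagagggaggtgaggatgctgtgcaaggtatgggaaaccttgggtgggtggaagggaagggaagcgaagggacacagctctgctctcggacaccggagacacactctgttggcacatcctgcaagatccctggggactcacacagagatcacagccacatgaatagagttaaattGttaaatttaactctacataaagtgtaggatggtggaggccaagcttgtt
An interferon response element and a kappaB motif were searched in an early run, and their results are not reported here. On both strands of each window matches to 3 short motifs are reported, and none of these motifs was found in that of Cd22. They were TTCNNNGAA (a STAT-type palindrome), GAGGAAGT (an ETS-type site such as that of PU.1) and the shorter GGAAGT that it contains. Among the first promoters of 27025 genes, 8.47% held TTCNNNGAA, 3.28% held GAGGAAGT and 24.1% held GGAAGT. The search covered no sequence of Cd22 outside this window, and no binding was measured.

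Siglecg encodes an inhibitory lectin known from B cells of the innate-like subset, where it recognises ligands such as Cd24. Its values were 3.37, 3.98, 9.47 and 5.50 CPM in allogeneic libraries, 2.63, 1.87, 1.62 and 2.32 CPM in syngeneic libraries, and 9.39, 10.5, 16.9 and 11.8 CPM in control libraries. The syngeneic values lay below all others, and allogeneic replicate 3 reached just past the lowest control value, so the allogeneic and control groups overlapped. Siglecg averaged 2.11 ± 0.453 CPM in syngeneic against 12.2 ± 3.35 CPM in control microglia, with a log2 fold change of -2.52 ± 0.36 (edgeR adjusted p = 1.1e-05). Allogeneic microglia averaged 5.58 ± 2.74 CPM, a log2 fold change of 1.40 ± 0.35 against syngeneic and -1.12 ± 0.34 against control microglia.

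**Figure D2:**
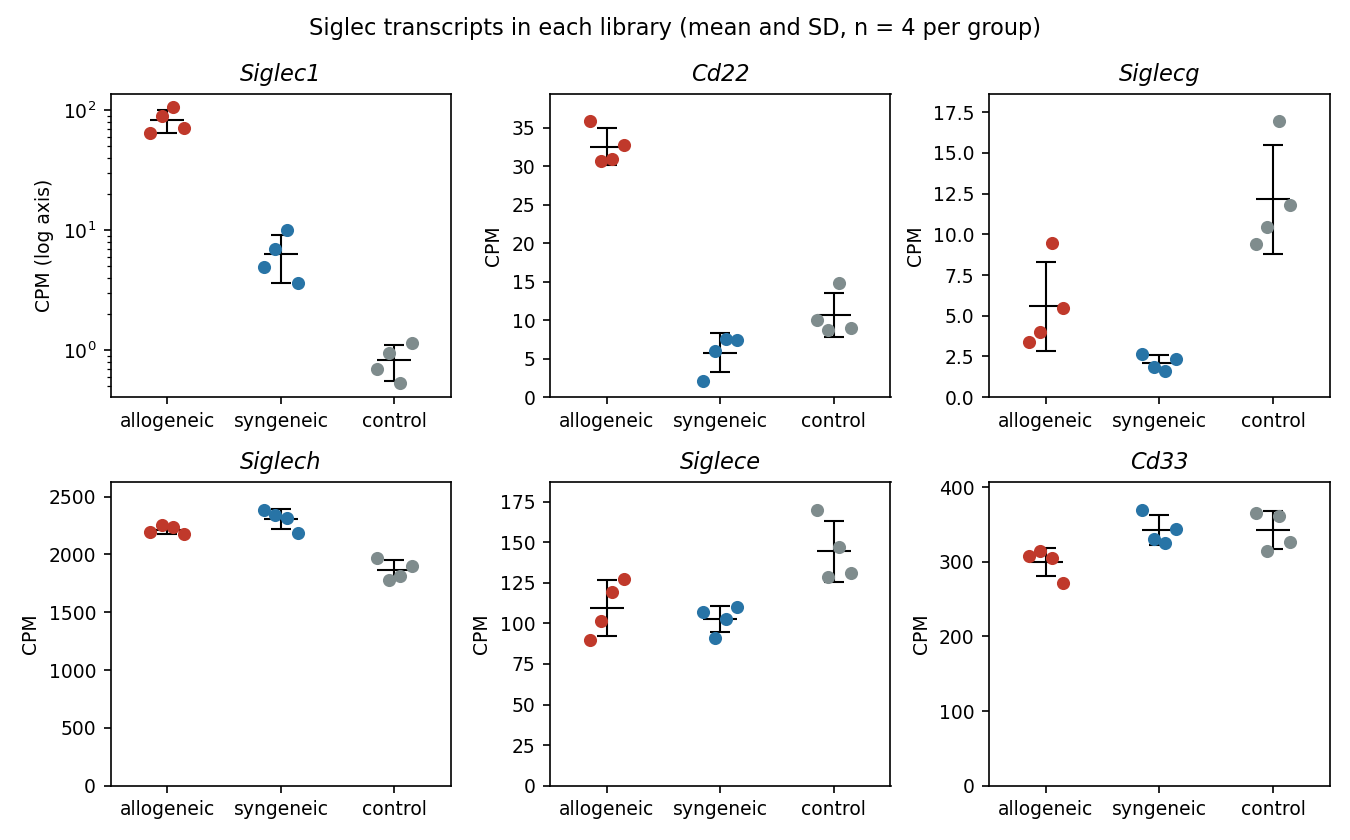
CPM of each of the 6 Siglec genes in every library, 4 points per group with mean and SD, in the order allogeneic, syngeneic, control (Siglec1 on a log axis, the others from 0). Siglec1 forms 3 separate levels with means of 82.5, 6.37 and 0.8291 CPM, Cd22 is high in allogeneic libraries only among these 3 groups, and Siglecg is lowest in syngeneic libraries.

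Siglech encodes a lectin without inhibitory motifs that signals through the Tyrobp adaptor, and beside microglia it marks plasmacytoid dendritic cells. Allogeneic libraries held 2197, 2251, 2240 and 2174 CPM, syngeneic libraries 2388, 2341, 2312 and 2187 CPM, and control libraries 1965, 1778, 1817 and 1902 CPM. The allogeneic and syngeneic values overlapped, and every value of both lay above every control value. The log2 fold change was -0.06 ± 0.05 in allogeneic against syngeneic, 0.31 ± 0.05 in syngeneic against control and 0.25 ± 0.05 in allogeneic against control microglia, but the last turned to -0.12 with library totals in place of TMM factors. No test is given for Siglech, since it was chosen as stable. The 12 markers of plasmacytoid dendritic cells summed to 1474 to 1565 CPM in allogeneic, 1272 to 1403 CPM in syngeneic and 1279 to 1325 CPM in control libraries. Most of that sum was Lair1, an inhibitory collagen receptor gene, which averaged 1130 CPM in allogeneic, 869 CPM in syngeneic and 757 CPM in control libraries. Without Lair1 the sums ran the other way, at 382 to 420 CPM in allogeneic, 442 to 479 CPM in syngeneic and 541 to 563 CPM in control libraries. Of those 11 genes, Blnk averaged 192 CPM in allogeneic, 226 CPM in syngeneic and 367 CPM in control libraries. Tcf4 averaged 167 CPM in allogeneic, 218 CPM in syngeneic and 169 CPM in control libraries, and Cox6a2 averaged 33.3 CPM in allogeneic, 11.3 CPM in syngeneic and 6.07 CPM in control libraries. Klk1, Ly6d and Cd209d had no count in any library. The part of these cells in the level of Siglech was not tested.

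Its promoter, chr7:55767934-55768233 on the plus strand of GRCm38.p6, is shown beside that of Cd22 as the window of the most abundant member, with capitals for the motif matches.
Siglech: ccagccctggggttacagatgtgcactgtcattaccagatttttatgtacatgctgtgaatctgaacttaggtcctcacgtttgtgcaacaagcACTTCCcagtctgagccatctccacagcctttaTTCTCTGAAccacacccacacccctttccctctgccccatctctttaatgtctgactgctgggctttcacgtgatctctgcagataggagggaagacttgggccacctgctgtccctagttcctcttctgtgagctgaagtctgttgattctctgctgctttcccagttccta
It held 1 GGAAGT match, written on this strand as its complement and starting 156 bases before the annotated start, and 1 TTCNNNGAA match starting 123 bases before it. GAGGAAGT had no match in the Siglech window, and Siglece and Siglecg had no match to any of the 3 motifs. In RefSeq the Siglech gene overlaps the predicted gene Gm39015, and without a stated strand setting reads of overlapping genes cannot be told apart.

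Siglece encodes the main inhibitory Siglec of mouse neutrophils and macrophages. Its values were 89.4, 101, 120 and 127 CPM in allogeneic, 107, 91.1, 103 and 110 CPM in syngeneic, and 170, 129, 147 and 131 CPM in control libraries. Control values lay above all others, and the allogeneic values spanned the syngeneic ones. Siglece was lower in syngeneic (103 ± 8.24 CPM) than in control microglia (144 ± 19.1 CPM), with a log2 fold change of -0.49 ± 0.12 (edgeR adjusted p = 0.00174). Against control microglia the allogeneic log2 fold change was -0.40 ± 0.12, and against syngeneic microglia it was 0.09 ± 0.12, which turned to -0.11 with library totals. RefSeq places Ceacam18 and Ctu1 over the same stretch, and both were low, at 0.959 and 2.38 CPM in allogeneic, 0.816 and 2.68 CPM in syngeneic, and 0.887 and 4.04 CPM in control libraries. The summed neutrophil markers were, like Siglece, highest in control libraries. The 11 found in the table summed to 336 to 398 CPM in allogeneic, 321 to 363 CPM in syngeneic and 543 to 697 CPM in control libraries. Nearly all of it was Csf3r, the G-CSF receptor gene, with means of 362 CPM in allogeneic, 337 CPM in syngeneic and 588 CPM in control libraries. Without Csf3r the other 10 genes summed to 2.22 to 7.21 CPM in allogeneic, 0.646 to 5.28 CPM in syngeneic and 0.159 to 28.7 CPM in control libraries. Among these, Ngp averaged 0.172 CPM in allogeneic, 0.246 CPM in syngeneic and 7.01 CPM in control libraries, S100a8 averaged 2.23 CPM in allogeneic, 0.724 CPM in syngeneic and 2.51 CPM in control libraries, and Stfa1 had no count. The part of neutrophils in the level of Siglece was not tested.

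Cd33 encodes a myeloid Siglec whose human counterpart carries inhibitory motifs. Allogeneic libraries held 308, 314, 306 and 272 CPM, syngeneic libraries 370, 331, 325 and 344 CPM, and control libraries 366, 315, 362 and 327 CPM. All allogeneic values lay below all syngeneic and control values, by margins as small as that between 314 and 315 CPM. The log2 fold change was -0.19 ± 0.07 in allogeneic against syngeneic and also -0.19 ± 0.07 in allogeneic against control microglia. Syngeneic (343 ± 20.1 CPM) and control microglia (342 ± 25.3 CPM) had a fitted log2 fold change of 0.00 ± 0.07 (edgeR adjusted p = 0.998), which became -0.17 with library totals (edgeR adjusted p = 0.0471).

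Between allogeneic and syngeneic libraries, 3 of the 6 genes had all allogeneic values above and 1 had all of them below, where 12.6% and 8.1% of all genes tested did so (20.7% in either direction). Since that contrast chose the genes, nothing is read from these counts. Between allogeneic and control libraries 3 lay wholly above and 2 wholly below, against 26.2% and 27.7% of all genes (53.8% in either direction), and this contrast also chose them. Between syngeneic and control libraries 2 lay wholly above and 3 wholly below, against 24.6% and 25.5% of all genes (50% in either direction). In syngeneic against control microglia, 4 of the 5 genes tested were called, 1 higher (Siglec1) and 3 lower (Cd22, Siglecg and Siglece), where 52.1% of all genes were called, 26.4% higher and 25.6% lower. That comparison shares its libraries with the ones that chose the genes.

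**Figure D3:**
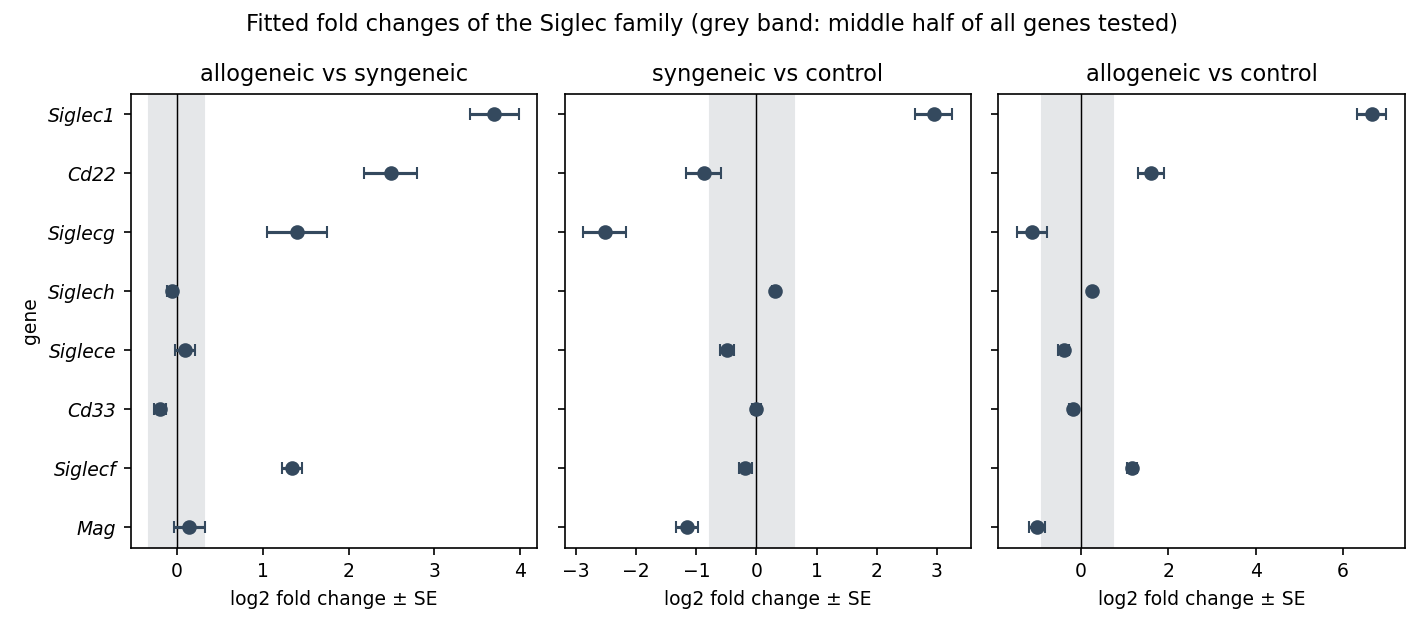
Fitted log2 fold changes with SE of the 6 Siglec genes, Siglecf and Mag in the 3 comparisons, with a grey band from the lower to the upper quartile of all 12695 genes tested. Siglec1 lies outside the band on the higher side in all 3 panels, Siglecg outside it on the higher side at 1.40, then on the lower side at -2.52 and -1.12, and Siglech, Siglece and Cd33 lie inside it (Siglech at 0.25 and Siglece at 0.09 turn to -0.12 and -0.11 with library totals).

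Other family members gave a further split. Siglecf, an inhibitory lectin of eosinophils and alveolar macrophages, held 153, 171, 140 and 160 CPM in allogeneic, 58.3, 64.2, 54.3 and 69.2 CPM in syngeneic, and 80.0, 72.5, 56.1 and 71.0 CPM in control libraries. It rose in allogeneic against syngeneic microglia by 1.34 ± 0.11 log2 units (edgeR adjusted p = 6.3e-08), while syngeneic and control libraries overlapped (log2 fold change -0.18 ± 0.11, edgeR adjusted p = 0.187; -0.35 and 0.0175 with library totals, -0.28 and 0.0406 without control replicate 3). The 8 eosinophil markers summed to 1.86 to 7.15 CPM in allogeneic, 3.88 to 7.26 CPM in syngeneic and 3.03 to 5.58 CPM in control libraries. Ccr3 made up most of it, at 2.49 CPM in allogeneic, 4.79 CPM in syngeneic and 4.57 CPM in control libraries, followed by Alox15 at 1.20 CPM in allogeneic and 0.666 CPM in syngeneic libraries, with no count in control libraries. Prg2 had no count in allogeneic or syngeneic libraries and averaged 0.0199 CPM in control libraries, Epx averaged 0.00715 CPM in allogeneic libraries with no count in the others, and Ear6 had no count in any library. Mag, the myelin-associated glycoprotein of oligodendrocytes, averaged 12.7 CPM in syngeneic against 28.3 CPM in control microglia (log2 fold change -1.15 ± 0.18, edgeR adjusted p = 3.2e-05) and 14.1 CPM in allogeneic microglia. The oligodendrocyte list that holds Mag summed to 218 to 317 CPM in allogeneic, 456 to 639 CPM in syngeneic and 160 to 195 CPM in control libraries. That order came from Enpp2, which averaged 120 CPM in allogeneic, 374 CPM in syngeneic and 29.4 CPM in control libraries. Without Enpp2 the other 9 genes, led by Cnp and Mbp, overlapped between the groups, at 129 to 146 CPM in allogeneic, 116 to 177 CPM in syngeneic and 145 to 153 CPM in control libraries. Siglec15 had no count in any library.

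The Cd33 and Siglecf promoters are shown together as those of 2 relatives that differed in the allogeneic libraries. Capitals mark the 3 exact runs of at least 12 bases that both windows share. No other pair of windows was searched for such runs. In a global alignment 61.0% of the aligned bases of this pair were identical, within the 54.3% to 69.2% of all pairs of family windows. The windows are chr7:43533122-43533421 on the minus strand for Cd33 and chr7:43351091-43351390 on the plus strand for Siglecf, from RefSeq GRCm38.p6.
Cd33: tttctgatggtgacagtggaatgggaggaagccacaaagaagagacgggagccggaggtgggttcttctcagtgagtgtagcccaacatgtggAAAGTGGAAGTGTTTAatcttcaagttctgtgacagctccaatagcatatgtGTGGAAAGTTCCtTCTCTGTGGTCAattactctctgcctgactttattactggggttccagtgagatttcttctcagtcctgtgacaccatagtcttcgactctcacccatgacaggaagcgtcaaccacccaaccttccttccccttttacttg
Siglecf: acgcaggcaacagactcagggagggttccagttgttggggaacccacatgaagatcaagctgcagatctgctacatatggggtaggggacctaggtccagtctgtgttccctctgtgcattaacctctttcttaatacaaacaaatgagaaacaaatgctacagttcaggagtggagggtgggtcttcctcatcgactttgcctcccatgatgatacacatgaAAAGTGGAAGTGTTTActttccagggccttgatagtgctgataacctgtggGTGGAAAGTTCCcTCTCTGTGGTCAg
The runs are 16, 12 and 12 bases long and lie in the same order in both genes. They start 157, 105 and 92 bases before the annotated start of Cd33, and 27 bases before, and at bases 25 and 38 after, that of Siglecf. The first run holds the GGAAGT letters, the single match of each window to the 3 motifs reported.

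Across the 56 tested genes of sialic acid biology and Siglec signalling, 15 were higher and 6 lower in allogeneic against syngeneic microglia (37.5% called, against 16.5% of all genes tested, of which 10.1% higher and 6.38% lower; median log2 fold change 0.04, against -0.01 over all genes). With library totals the split was 11 higher and 13 lower, and over all genes it was 844 higher and 2108 lower in place of 1288 and 810. In syngeneic against control microglia 16 were higher and 14 lower (53.6%, against 52.1% of all genes; median 0.11, against -0.03), or 11 and 18 with library totals, where all genes gave 2723 and 3968 in place of 3357 and 3253. In allogeneic against control microglia 20 were higher and 15 lower (62.5%, against 57.3% of all genes, of which 28.2% higher and 29.1% lower), or 14 and 25 with library totals, where all genes gave 2453 and 5259 in place of 3576 and 3697. The lists were chosen with earlier results of these data known, so nothing is read from shares above those of all genes.

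Among the 20 signalling partners, 8 rose and 1 fell in allogeneic against syngeneic microglia (median log2 fold change 0.09). Of all genes tested, 10.1% rose and 6.38% fell in that comparison. Tyrobp, the adaptor that carries Siglech signals, averaged 2468 CPM in allogeneic and 1673 CPM in syngeneic against 889 CPM in control microglia, higher at both steps (allogeneic against syngeneic 0.56 ± 0.07, edgeR adjusted p = 3.9e-06; syngeneic against control 0.91 ± 0.07, edgeR adjusted p = 1.9e-09). The values of Siglech, its partner receptor, overlapped between allogeneic and syngeneic libraries. The related adaptor gene Hcst also rose at both steps, by 1.32 ± 0.22 and 0.87 ± 0.22 log2 units. Socs3, a cytokine signalling inhibitor that binds phosphorylated Siglec motifs in human cells, rose by 1.61 ± 0.24 in allogeneic against syngeneic microglia, and the kinase gene Src rose by 1.25 ± 0.22.

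Of the phosphatase genes behind inhibitory Siglec signalling, Ptpn6 and Ptpn11 were not called in allogeneic against syngeneic microglia. Ptpn6, the main partner of the inhibitory motifs, averaged 287 CPM in allogeneic and 300.1 CPM in syngeneic against 444 CPM in control microglia, with a log2 fold change of -0.06 ± 0.12 in allogeneic against syngeneic (edgeR adjusted p = 0.803) and of -0.57 ± 0.12 in syngeneic against control microglia (edgeR adjusted p = 6.9e-04). Ptpn11 averaged 17.4 CPM in allogeneic, 16.3 CPM in syngeneic and 9.09 CPM in control libraries (allogeneic against syngeneic 0.10 ± 0.24, edgeR adjusted p = 0.850). Inpp5d, the lipid phosphatase SHIP1, was lower at both steps (-0.38 ± 0.08 and -0.73 ± 0.08). Syk and Plcg2, the kinase and phospholipase of the activating arm, were lower in syngeneic than in control microglia (-1.10 ± 0.13 and -1.06 ± 0.10) and were not called in allogeneic against syngeneic microglia (-0.29 ± 0.13 and -0.07 ± 0.10), although Syk was called lower there with library totals (-0.49) and without allogeneic replicate 4 (-0.41).

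Genes that make the sugars bound by these receptors moved in both directions. St6gal1, the sialyltransferase that builds the linkage preferred by Cd22, averaged 9.56 CPM in allogeneic and 22.4 CPM in syngeneic against 44.5 CPM in control microglia, lower at both steps (-1.23 ± 0.19, edgeR adjusted p = 1.3e-04, and -0.99 ± 0.19, edgeR adjusted p = 2.4e-04). In allogeneic libraries Cd22 was thus at its highest and St6gal1 at its lowest level of the 3 groups. Among the 13 sialyltransferases tested, 1 rose and 3 fell in allogeneic against syngeneic microglia (median -0.42). Over all genes tested 10.1% rose and 6.38% fell there. St3gal6 (-0.72 ± 0.08) was among those that fell, and it was higher in syngeneic than in control microglia (0.87 ± 0.08). St3gal2 (-0.58 ± 0.18) and St8sia1 (1.66 ± 0.55) were also called. St3gal2 lost its call without syngeneic replicate 1 or 4 or allogeneic replicate 2 or 3 (edgeR adjusted p 0.0535 to 0.0838), and St8sia1 without syngeneic replicate 1, 3 or 4 or allogeneic replicate 2, 3 or 4 (edgeR adjusted p 0.0652 to 0.189). The call of St8sia1 was also lost with library totals (edgeR adjusted p = 0.0709), without a filter on low counts (0.0586) and with the replicate number as a block (0.0871).

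Among the genes that remove sialic acid, Neu1, the lysosomal sialidase, averaged 46.4 CPM in allogeneic and 21.5 CPM in syngeneic against 71.0 CPM in control microglia. Like Siglecg, Neu1 was lowest in syngeneic libraries and intermediate in allogeneic ones (1.11 ± 0.16, edgeR adjusted p = 3.6e-05, and -1.73 ± 0.16, edgeR adjusted p = 4.4e-08). It was the 1 gene called of 5 sialidase and esterase genes in allogeneic against syngeneic microglia, where 16.5% of all genes tested were called. In syngeneic against control microglia 3 of these 5 fell, where 25.6% of all genes tested fell. They were Neu1, Ctsa (-0.38 ± 0.07), the partner that protects Neu1, and Siae (-0.72 ± 0.15), a sialic acid esterase. Of 8 genes of sialic acid synthesis and turnover 1 was called in allogeneic against syngeneic microglia, against 16.5% of all genes tested. It was Renbp (0.28 ± 0.09, edgeR adjusted p = 0.0345), a call lost with library totals (log2 fold change 0.08, edgeR adjusted p = 0.536), without a filter on low counts (0.0588), with the replicate block (0.0545) and without control replicate 2, syngeneic replicate 1, 3 or 4, or allogeneic replicate 1, 2 or 4 (edgeR adjusted p 0.0559 to 0.111). Nans, which makes sialic acid, rose in syngeneic against control microglia by 0.77 ± 0.13.

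Sialoglycoproteins, some of them described as Siglec ligands in mouse or human, held 3 genes that rose and 2 that fell of 8 tested in allogeneic against syngeneic microglia (median 1.06). Of all genes tested 10.1% rose and 6.38% fell in that comparison. Cd52 averaged 936 CPM in allogeneic and 248 CPM in syngeneic against 60.0 CPM in control microglia, a stepwise order like that of Siglec1 (1.92 ± 0.09 and 2.05 ± 0.09, edgeR adjusted p = 2.8e-11 and 3.9e-12). Lgals3bp (2.06 ± 0.14 and 0.96 ± 0.13) and the adhesion receptor Cd44 (2.06 ± 0.41 and 1.28 ± 0.41) were also higher at both steps. Selplg, the P-selectin ligand, was lower at both (-0.38 ± 0.09 and -1.06 ± 0.09). Clu was lower in allogeneic than in syngeneic microglia (-0.98 ± 0.31, edgeR adjusted p = 0.0339), a call lost without a filter on low counts (0.0762) and without syngeneic replicate 1 or 3 or allogeneic replicate 1, 3 or 4 (edgeR adjusted p 0.0576 to 0.0979).

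**Figure D4:**
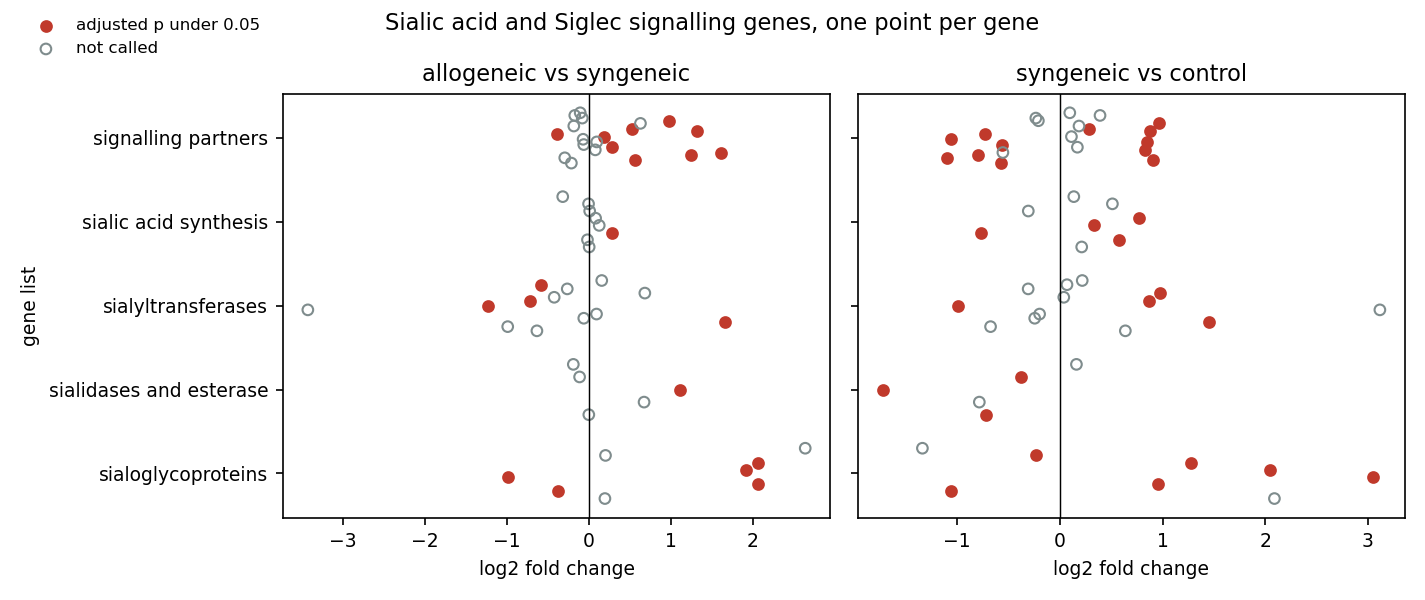
Log2 fold changes of the tested genes of 5 lists in allogeneic against syngeneic (left) and syngeneic against control microglia (right), 1 point per gene, filled where the edgeR adjusted p was under 0.05. In the left panel 8 signalling partners are filled on the higher side and 1 on the lower side, and with library totals the 56 genes of all 6 lists, which add Siglecf and Mag to those plotted, split 11 higher and 13 lower instead of 15 and 6. Over all genes tested, 10.1% were higher and 6.38% lower in the left comparison.

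The genes with the most similar profiles over the 12 libraries differed between Siglec1 and Cd22. Likeness was the root mean square difference of log2(CPM + 0.5) after centring each gene on its mean, over 11821 candidate genes, and the candidates are given as description. Nearest to Siglec1 were Ifi47 (0.43), an interferon-inducible GTPase gene, Fxyd5 (0.44), the complement gene Cfb (0.48), Mnda (0.49) and the scavenger receptor gene Msr1 (0.50). All 5 had the same 3 levels, such as Cfb with 195 CPM in allogeneic, 12.6 CPM in syngeneic and 1.42 CPM in control libraries. Nearest to Cd22 were Rspo1 (0.37), the stress gene Gadd45b (0.47), the interferon regulatory factor gene Irf1 (0.48), Fam26f (0.49) and Tnfsf13b (0.49), the B cell survival factor BAFF. They were high in allogeneic libraries and low in both other groups, such as Irf1 with 268 CPM in allogeneic, 54.8 CPM in syngeneic and 91.7 CPM in control libraries.

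Each of the other members had its own nearest genes. Phyh (0.05), Tmem50a (0.06) and Mat2b (0.07) lay nearest to Siglech, Uqcrc1 (0.09), Entpd1 (0.10) and Dtymk (0.11) to Siglece, and Tpp1 (0.07), Hnrnpc (0.09) and Rgs19 (0.09) to Cd33. For Siglecg they were Cep152 (0.31), Ccdc40 (0.32) and C1rl (0.34). Cep152 averaged 12.3 CPM in allogeneic, 5.25 CPM in syngeneic and 28.8 CPM in control libraries, the same dip in syngeneic libraries as Siglecg. Ccdc40 averaged 0.717 CPM in allogeneic libraries, had no count in syngeneic libraries and averaged 1.70 CPM in control libraries, and C1rl averaged 15.4, 7.96 and 27.4 CPM in allogeneic, syngeneic and control libraries.

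**Figure D5:**
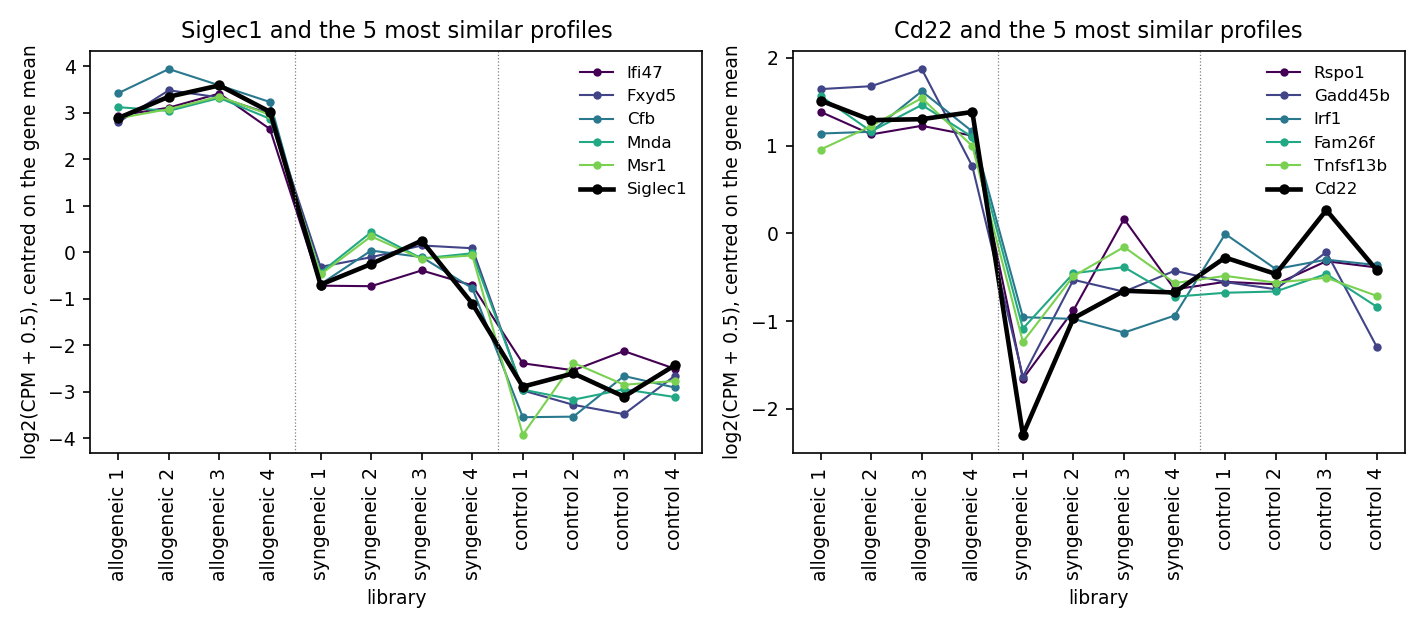
Centred log2(CPM + 0.5) in the 12 libraries, in the order allogeneic, syngeneic, control, for Siglec1 (left, black) and Cd22 (right, black) with the 5 most similar genes of each. The Siglec1 profiles step down over the 3 groups, whereas the Cd22 profiles are high in allogeneic libraries and lower in the other groups, with syngeneic replicate 1 lowest for Cd22 at 2.10 CPM.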

How the data were processed

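For the 12 microglia libraries the authors deposited a single table of raw counts by gene symbol, all whole numbers, which was used unchanged. Trimmomatic 0.36, STAR 2.5.2b and the build mm9 are named per the submitters' processing notes. The counting tool, annotation, strand setting and treatment of reads shared by close relatives were not given in the sources used here, so values of near-identical Siglec genes and of overlapping genes carry that uncertainty. No table column was left without a sample.

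With edgeR 4.0.16 in R 4.3.3, TMM-scaled CPM and log2 fold changes were obtained after filterByExpr (minimum count 10), which kept 12695 of 18018 genes with any count. All 12 libraries entered 1 robust quasi-likelihood model with a mean per group, which gave the 3 comparisons. Genes were called where the Benjamini-Hochberg p over all genes tested was below 0.05. The fit was tested on simulated counts. Those counts had a smaller spread and fewer changed genes than these libraries, so error rates here were not measured. The labels give 4 mice per group, and the replicate pairs differed by more than sampling noise. Alternatives were RLE factors, library totals, 2 other filters, DESeq2 1.42.0, only the compared groups, the replicate number as a block and each library left out.

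The members and gene lists were chosen with earlier results of these data known. Named genes were every member, the 5 (Siglec1, Cd22) or 3 nearest profiles, predicted genes left out, up to 5 and 3 list genes with the smallest p in allogeneic against syngeneic and syngeneic against control, and the 3 most abundant or all uncounted genes of each marker list. Ptpn6, Ptpn11, Syk, Ly6c2, Ccr2, Mrc1, Lyve1, Cd79a, Ms4a1, Cd72, Cox6a2 and Epx were named after their values were seen, and the marker sums without the most abundant gene of a list were added then too. A few genes that the rule gives are not reported here; this did not depend on their values, and counts and sums over lists include them. Exon lengths came from GENCODE M21 and sequences from RefSeq GRCm38.p6, where 5 of the 6 members had a promoter entry; Siglec1 was the other. No gene coordinate of mm9 is given.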

Additional observations from a re-analysis of the deposited data

How the results depend on the processing

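The total of genes called in each comparison, over all genes and over the 56 list genes, stayed within 1.5 times its value in every alternative run. Its split by direction did not with library totals: 844 genes were higher and 2108 lower in allogeneic against syngeneic microglia in place of 1288 and 810, and of the list genes 13 were lower in place of 6 there and 25 in place of 15 in allogeneic against control microglia. With each library left out the total over all genes was 1768 to 2115 genes in allogeneic against syngeneic, 6189 to 6761 in syngeneic against control and 6860 to 7362 in allogeneic against control microglia.

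Library totals alone moved the small fold changes. In allogeneic against syngeneic microglia Siglech became -0.26, Siglece -0.11 (turned) and Cd33 -0.39. In syngeneic against control microglia Siglech became 0.14 and Cd33 -0.17 (edgeR adjusted p = 0.0471). In allogeneic against control microglia Siglec1 became 6.27, Cd22 1.24, Siglece -0.77, Cd33 -0.56, Siglech -0.12 (turned) and St3gal6 -0.22 (turned, edgeR adjusted p = 0.0326). TMM factors were 0.844 to 0.893 in allogeneic, 1.002 to 1.021 in syngeneic and 1.096 to 1.159 in control libraries, and leaving them out lowers every fold change by their ratio.

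The call of Cd22 in syngeneic against control microglia was lost with only those 2 groups (-0.88, edgeR adjusted p = 0.0508) and, among fits without 1 library, which ranged from -1.04 to -0.60, without control replicate 3. The calls of Siglec1, Siglecg and Siglece held in every alternative run. Same-numbered replicates did not deviate together over all genes tested (correlations -0.020 to 0.020), so no pairing by number was seen. A pairing that touched few genes would not show in these correlations. With the replicate block 2002 genes were called in allogeneic against syngeneic microglia, 6507 in syngeneic against control and 7200 in allogeneic against control. Low counts of Siglec1 in control and of Siglecg in syngeneic libraries limit the precision of their fold changes, and 4 mice per group limit all of them.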

Other observations

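Control replicate 3 held the highest control value of Cd22 (14.8 CPM), Siglecg (16.9 CPM) and St6gal1 (61.9 CPM, against 36.9 to 40.7 CPM in the other control libraries), but not of Siglec1, where it was lowest at 0.529 CPM. Syngeneic replicate 1 had the lowest Cd22 value of all 12 libraries (2.10 CPM) and the highest Siglecg value of its group (2.63 CPM). None of the 24 group tests for a library far from the others passed Dixon's critical value. What sets these libraries apart was not tested.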
